A study of Mus musculus with 14 samples.

Results

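Complement and coagulation factors are plasma proteins that the liver makes, and 39 of their genes were followed here in mouse liver. For each gene the probe set annotated with exactly that symbol was taken, and the brightest where a gene had several. Of the 39 listed genes, 35 were measured in this way, among 22180 genes on the array. C3, Cpb2, Masp2 and Klkb1 were not analysed here. The probe set listed for Masp2 also carries the symbol Tardbp, and that for Klkb1 also carries Cyp4v3. The choice of probe set used gene names and brightness over all arrays, not any difference between groups. The 39 genes themselves were chosen with earlier results of these data known.

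Liver total RNA came from male C57Bl/6J mice on a 60% high-fat diet (HFD), started at 6 weeks of age and eaten freely for 4 weeks before the groups were formed. During the next 4 weeks HFD controls (4 arrays) continued unchanged, while another group (5 arrays) was given canagliflozin beside the diet, at 30 mg/kg by the sample labels and 25 to 30 mg/kg by the protocol. The last group (5 arrays) was restricted in calories by 15 to 30% to match the weight of the drug-treated mice. All groups thus share the strain, the sex and the obesity that preceded treatment, and no lean group was measured. Canagliflozin inhibits SGLT2, which reclaims filtered glucose in the kidney. The labels do not say that each array is a separate mouse, so the p-values measure the spread between these arrays, which may be technical.

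Complement is a cascade of plasma proteases. Antibody or sugar-binding proteins such as the mannose-binding lectins start it, C3 is its hub, and the terminal components C6, C8 and C9 join others to build a pore in the target membrane. Coagulation is a parallel cascade in which vitamin K dependent proteases lead to thrombin, which turns fibrinogen into fibrin, while antithrombin and the protein C system restrain it and plasmin dissolves the clot. Hepatocytes secrete most of these proteins, and the fibrinogen genes are well known to respond to interleukin-6.

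The arrays were alike in scale, with medians from 4.07 to 4.13 on the log2 scale. The 6 hepatocyte markers, which include Alb and Apoa1, had a mean log2 value from 12.09 to 12.22 in every array, and those of neutrophils (2.98 to 3.32) and of platelets and megakaryocytes (3.87 to 4.38) were dim throughout. Macrophage markers varied more between arrays, from 6.27 to 7.21 for the mean of 10 genes including Clec4f and Adgre1. Of the 35 genes followed, 31 had a mean log2 value of at least 9. Brightness depends on the probes, so it does not rank genes by abundance. C1s1 was the dimmest member, with a mean of 5.82.

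Values of the fibrinogen genes and of some terminal complement genes moved together across arrays, as did those of some other pairs of members. The results below turn on those fibrinogen and terminal complement genes and on Pros1, which had the largest difference between groups. For Fga, Fgb, Fgg, C8b, C9 and Pros1 the sequences over the 250 bases before the start site are shown. They run 5′ to 3′ along the gene and come from RefSeq in build GRCm38.p6. Capitals mark any match, on either strand, to the motifs GTTAAT (HNF1), CAAAGTC (HNF4 core), TGTTTAC (FOXA), TTGCNNAA (C/EBP), TTCNNNGAA (STAT) and CTGGGAA (interleukin-6 response element). The STAT and interleukin-6 motifs can overlap each other. The windows lie at chr3:83025903-83026152, plus strand for Fga, chr3:83049864-83050113, minus strand for Fgb, chr3:83007474-83007723, plus strand for Fgg, chr4:104766067-104766316, plus strand for C8b, chr15:6445096-6445345, plus strand for C9 and chr16:62854057-62854306, plus strand for Pros1.
Fga: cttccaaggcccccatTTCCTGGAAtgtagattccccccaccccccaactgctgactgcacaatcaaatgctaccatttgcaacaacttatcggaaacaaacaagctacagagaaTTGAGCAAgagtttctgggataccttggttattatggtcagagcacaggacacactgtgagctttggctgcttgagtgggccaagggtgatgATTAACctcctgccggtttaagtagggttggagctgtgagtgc
Fgb: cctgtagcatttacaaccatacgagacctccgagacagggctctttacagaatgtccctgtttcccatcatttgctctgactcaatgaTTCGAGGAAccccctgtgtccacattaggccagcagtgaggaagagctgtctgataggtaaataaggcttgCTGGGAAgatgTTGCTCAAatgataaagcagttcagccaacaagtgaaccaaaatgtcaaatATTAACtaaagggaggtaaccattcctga
Fgg: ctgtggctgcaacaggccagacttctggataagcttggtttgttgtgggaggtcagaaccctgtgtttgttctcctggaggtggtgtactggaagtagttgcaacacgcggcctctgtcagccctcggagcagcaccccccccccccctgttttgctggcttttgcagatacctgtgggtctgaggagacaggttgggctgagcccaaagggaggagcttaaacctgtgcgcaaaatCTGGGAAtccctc
C8b: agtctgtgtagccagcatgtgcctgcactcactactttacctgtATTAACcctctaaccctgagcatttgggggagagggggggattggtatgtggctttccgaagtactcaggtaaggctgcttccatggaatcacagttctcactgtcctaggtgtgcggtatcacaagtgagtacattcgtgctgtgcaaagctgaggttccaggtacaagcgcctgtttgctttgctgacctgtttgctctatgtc
C9: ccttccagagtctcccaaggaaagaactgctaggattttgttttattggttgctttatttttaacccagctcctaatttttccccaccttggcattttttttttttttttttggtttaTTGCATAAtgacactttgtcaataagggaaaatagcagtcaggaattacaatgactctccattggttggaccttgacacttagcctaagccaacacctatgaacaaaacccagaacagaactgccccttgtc
Pros1: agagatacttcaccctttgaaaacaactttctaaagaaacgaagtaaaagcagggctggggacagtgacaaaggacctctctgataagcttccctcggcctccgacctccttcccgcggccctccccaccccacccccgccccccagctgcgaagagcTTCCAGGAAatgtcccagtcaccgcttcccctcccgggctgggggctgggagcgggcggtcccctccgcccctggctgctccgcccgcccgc

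The HNF1 motif began 43 bases before the start of Fga and 29 bases before that of Fgb, and a C/EBP match began 135 and 80 bases before them. The interleukin-6 motif began 91 bases before Fgb and 13 bases before Fgg. A STAT match lay 234, 162 and 92 bases upstream in Fga, Fgb and Pros1. The windows of C6 and C8a are not printed. That of C6 held 0 matches, and that of C8a held an HNF1 match 107 bases and a STAT match 228 bases upstream. RefSeq windows were matched for 31 of the 39 genes. The HNF1 motif was found in 9 of them (29%) and in 7.49% of all 27025 genes with a window, and the C/EBP motif in 8 (25.8%, against 10.8%). For STAT the counts were 6 (19.4%, against 8.13%), for the interleukin-6 motif 4 (12.9%, against 10.4%), for FOXA 2 (6.45%, against 3.54%) and for the HNF4 core 1 (3.23%, against 4.33%). A match describes letters and is not a binding site.

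No measured gene of this group passed an adjusted p of 0.05 in any of the 3 comparisons (limma, Benjamini-Hochberg over 22180 genes). For canagliflozin against HFD control 0 of 35 passed, against 0% of all genes, and the smallest adjusted p was 0.596. At an unadjusted p under 0.05 there was 1 gene, Pros1, which is 2.86% of the members against 6.51% of all genes. By direction that is 1 higher (against 3.21%) and 0 lower (against 3.3%). For caloric restriction against HFD control 0 of 35 passed, against 0% of all genes, and 0 had an unadjusted p under 0.05, against 3.93% (2.06% higher and 1.87% lower). Without restriction replicate 3, 3 members had lower values at that level, C6, C8a and C9, where 438 of 22180 genes did. C8a had such a p in 5 of 18 alternative fits, and C6 and C9 in 1 each. For canagliflozin against caloric restriction 0 of 35 passed, against 0.00451% of all genes, and 2 had an unadjusted p under 0.05, Pros1 higher and Proc lower, which is 5.71% against 6.05% (3.07% higher and 2.98% lower). With all arrays these shares are near or below the background.

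Confidence intervals give the sizes that these arrays allow. For canagliflozin against HFD control the 95% confidence interval of 33 of the 35 genes lay inside a 1.5-fold change in either direction, as it did for 92% of all genes. C1s1 and Pros1 were the exceptions. For caloric restriction against HFD control it was again 33 of 35, against 93.9% of all genes, with C1s1 and C9 outside. Between the treated groups it was 34 of 35, against 93.9%, with Pros1 outside. The median size of the difference, without its sign, was 0.083, 0.055 and 0.056 on the log2 scale in these comparisons, where all genes had 0.089, 0.081 and 0.085.

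**Figure D1:**
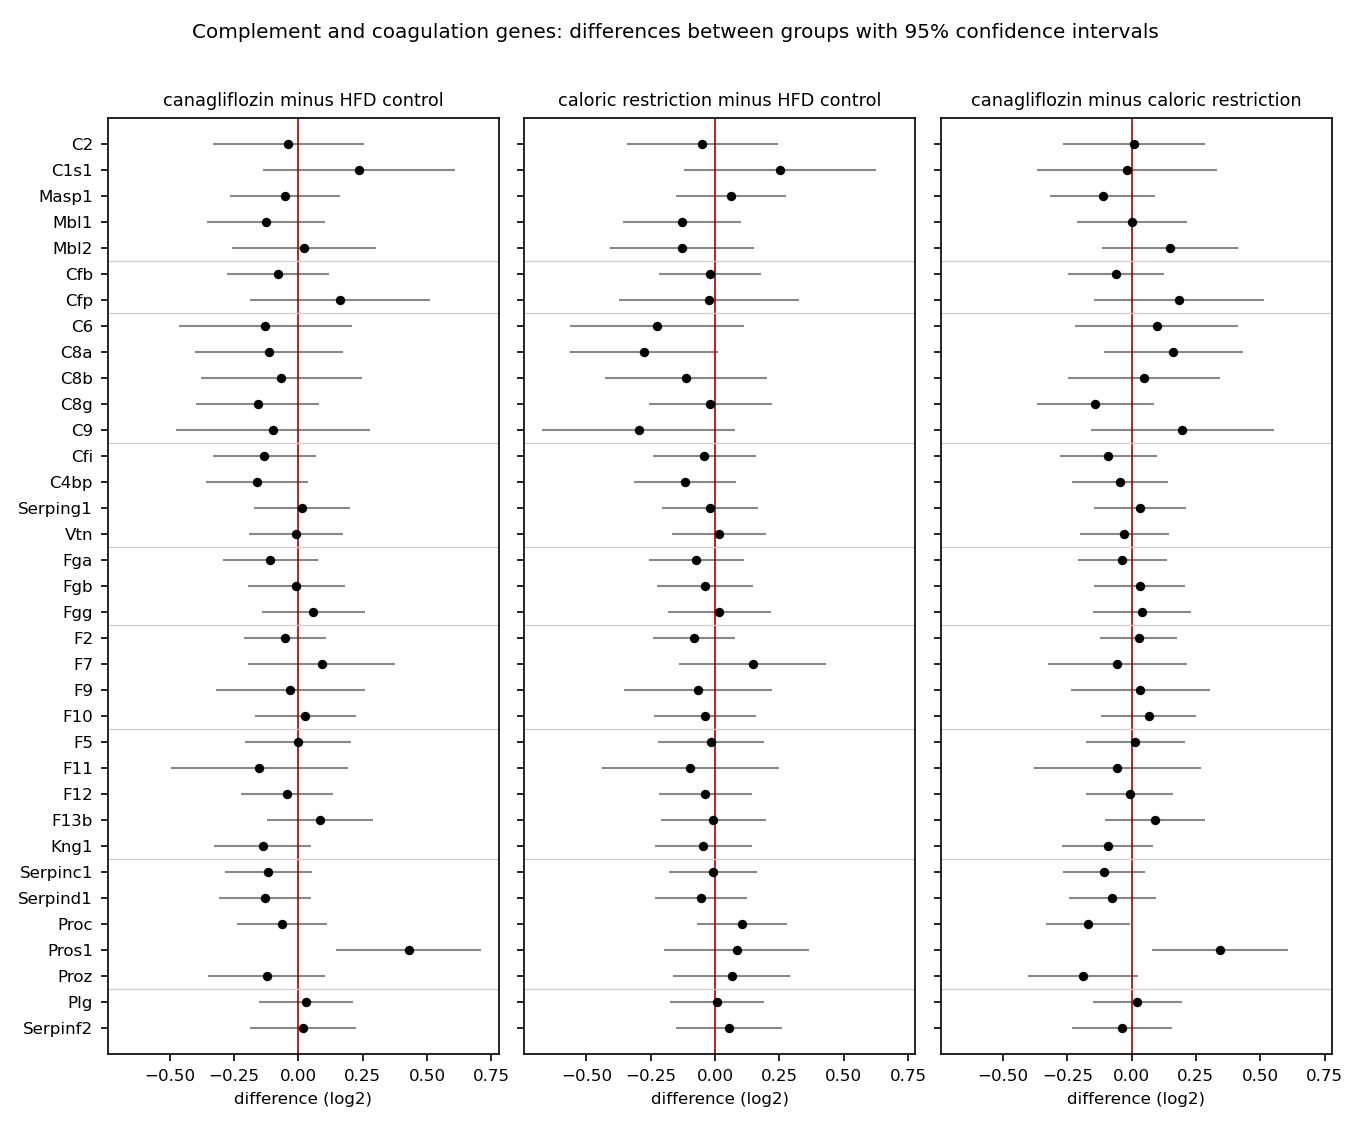
Differences on the log2 scale (x axis) for the 35 measured genes (y axis, grouped by role between grey lines) in the 3 comparisons, from limma, with bars for 95% confidence intervals and a red line at 0. Pros1 is the gene whose interval excludes 0 in both comparisons that involve canagliflozin.

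Signs leaned one way against the shared controls. Under canagliflozin 24 of 35 genes had lower means than HFD controls (68.6%, against 50.3% of all genes) and 11 had higher ones (31.4%, against 49.7%). Under caloric restriction 25 had lower means (71.4%, against 49.5%) and 10 had higher ones (28.6%, against 50.5%). Both counts use the same 4 control arrays. The medians of the members were -0.052 and -0.038, against -0.00085 and 0.0016 for all genes. Between the treated groups 17 of 35 had lower means under the drug (48.6%, against 51%) and 18 had higher ones (51.4%, against 49%), with a median of 0.0015. These counts and medians depend on single arrays. Under canagliflozin 18 means were lower when HFD control replicate 1 was left out, 19 when its replicate 4 was and 28 when its replicate 3 was. Leaving out canagliflozin replicate 2 gave 29. Under restriction 20 were lower without HFD control replicate 1 or 4, and 21 without restriction replicate 5. The canagliflozin median was -0.0087 without HFD control replicate 1, and the restriction median was -0.013 without restriction replicate 5 and -0.060 without HFD control replicate 3.

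Initiators of complement came first in the cascade and were measured for C1s1, C2, Masp1, Mbl1 and Mbl2. C1s1 encodes the protease that cleaves C4 and C2, C2 encodes the protease of the C3 convertase formed this way, Masp1 encodes a protease that travels with the mannose-binding lectins, and Mbl1 and Mbl2 encode those lectins. C1s1 measured 5.75, 5.63, 5.47 and 5.73 in HFD controls, 5.63, 5.78, 6.52, 5.90 and 5.56 under canagliflozin, and 6.29, 6.16, 5.55, 5.72 and 5.77 under caloric restriction. Canagliflozin replicate 3 and restriction replicates 1 and 2 were high, and the groups overlapped. C1s1 differed by 0.23 ± 0.18 (SE) under canagliflozin and 0.25 ± 0.18 under caloric restriction against controls (limma unadjusted p = 0.203 and 0.171). The first value was 0.074 without canagliflozin replicate 3, and the second was 0.13 with the mean of its probe sets. The other, dimmer probe set of C1s1 gave 0.17 ± 0.17 and -0.0021 ± 0.17, so the probe sets disagree under restriction.

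Mbl1 averaged 9.10 ± 0.15 (SD, n = 4) in HFD controls, 8.98 ± 0.18 (n = 5) under canagliflozin and 8.98 ± 0.13 (n = 5) under restriction, differences of -0.13 ± 0.11 and -0.13 ± 0.11 (SE) from controls. Mbl2 differed by 0.022 ± 0.13 and -0.13 ± 0.13 in the same order. C2 differed by -0.040 ± 0.14 and -0.049 ± 0.14, and Masp1 by -0.052 ± 0.10 and 0.061 ± 0.10. Across the 14 arrays Mbl1 and Mbl2 had r = -0.32 (permutation p = 0.27, adjusted p = 0.286) and rho = -0.45 (permutation p = 0.108, adjusted p = 0.159), and r = -0.35 without HFD control replicate 1 and canagliflozin replicate 2.

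Alternative pathway genes were Cfb, which encodes factor B, the protease of the C3 convertase, and Cfp, which encodes properdin, the stabiliser of that convertase. Cfb measured 11.37, 11.08, 11.05 and 11.12 in HFD controls, 10.99, 11.17, 11.20, 10.94 and 11.08 under canagliflozin, and 11.11, 11.11, 11.27, 11.18 and 11.01 under caloric restriction. HFD control replicate 1 was the highest array and canagliflozin replicate 4 the lowest, and all groups overlapped. Cfb differed by -0.080 ± 0.095 (SE) under canagliflozin and -0.019 ± 0.095 under restriction.

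Properdin is known to be made mainly by myeloid cells, and Cfp averaged 6.77 ± 0.37 in HFD controls, 6.93 ± 0.24 under canagliflozin and 6.75 ± 0.24 under restriction (SD, n = 4, 5 and 5). Its array values followed the macrophage markers. Over 14 arrays Cfp and the mean of the 10 macrophage markers, which do not include Cfp, had r = 0.88 (permutation p = 3e-05, adjusted p = 0.000108 over 18 relations) and rho = 0.88 (permutation p = 4e-05, adjusted p = 0.00063). Without HFD control replicate 3 and restriction replicate 5, the arrays with the lowest Cfp, r was 0.82, and after subtracting group means it was 0.88. This relation was chosen after the values were seen. Groups held too few arrays for a value within each. In bulk liver, fewer macrophages and less RNA per macrophage cannot be told apart. Cfp differed by 0.16 ± 0.17 under canagliflozin and -0.023 ± 0.17 under restriction. The first was 0.0048 without HFD control replicate 3 and 0.27 without HFD control replicate 1, and the second was -0.18 and 0.080 without the same arrays. The part of macrophage content in these values was not tested.

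**Figure D2:**
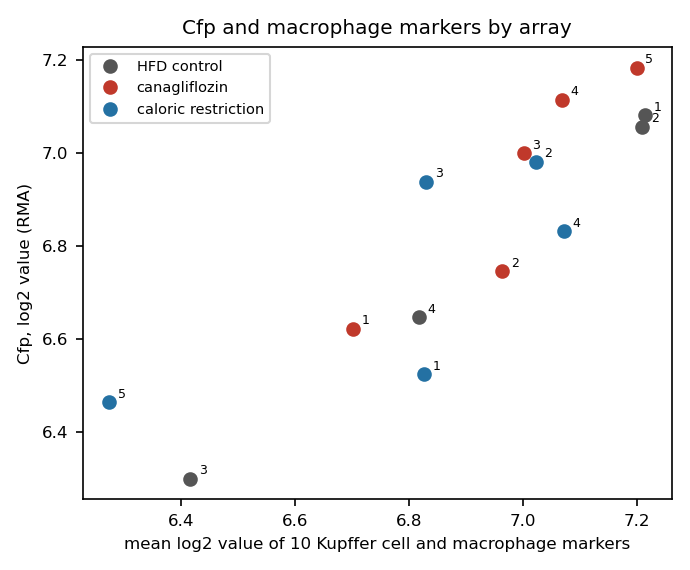
Log2 value of Cfp (y axis) against the mean log2 value of 10 Kupffer cell and macrophage markers (x axis) for the 14 arrays, coloured by group and numbered by replicate. The points rise together (r = 0.88), and the lowest arrays are HFD control replicate 3 and caloric restriction replicate 5.

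Terminal complement genes C6, C8b and C9 were among the most variable members. C6 measured 10.53, 10.13, 9.97 and 9.92 in HFD controls, 10.07, 9.95, 9.97, 9.92 and 10.13 under canagliflozin, and 9.45, 10.12, 10.34, 10.03 and 9.63 under caloric restriction. C9, whose product polymerises into the pore, measured 11.45, 11.22, 10.81 and 10.82 in HFD controls, 11.09, 11.24, 10.89, 10.58 and 11.07 under canagliflozin, and 10.74, 10.96, 11.22, 10.71 and 10.27 under caloric restriction. Polymerisation needs C8, of which C8a and C8b encode the alpha and beta chains. C8a measured 11.12, 11.01, 10.88 and 11.17 in HFD controls, 10.70, 11.18, 10.84, 10.83 and 11.09 under canagliflozin, and 10.46, 11.005, 11.03, 10.87 and 10.47 under caloric restriction. C8b measured 11.75, 11.64, 11.27 and 11.36 in HFD controls, 11.55, 11.57, 11.38, 11.20 and 11.50 under canagliflozin, and 11.12, 11.57, 11.80, 11.46 and 11.01 under caloric restriction. Restriction replicates 1 and 5 were the lowest of the 14 arrays for C6, C8a and C8b, whereas for C9 replicate 5 was the lowest and canagliflozin replicate 4 and restriction replicate 4 also lay below replicate 1. Restriction replicate 2 lay among the controls for all 4 genes. Replicate 3 did so for C6, C8a and C9 but was the highest of the 14 arrays for C8b. The groups overlapped.

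Caloric restriction gave the lowest means of C6, C8a, C8b and C9, without a call. C8a differed from HFD controls by -0.28 ± 0.14 (SE, 95% interval -0.57 to 0.010, limma unadjusted p = 0.0579), C9 by -0.30 ± 0.18 (interval -0.67 to 0.079, unadjusted p = 0.114), C6 by -0.23 ± 0.16 (unadjusted p = 0.176) and C8b by -0.11 ± 0.15, which ran from -0.019 without restriction replicate 5 to -0.22 without replicate 3. Their adjusted p was 0.999 in each case. Single arrays moved these sizes. C9 differed by -0.17 without restriction replicate 5 or HFD control replicate 1 and -0.41 without replicate 3, and C6 by -0.096 without HFD control replicate 1, -0.11 without restriction replicate 1 and -0.33 without restriction replicate 3. Under canagliflozin the differences from controls were -0.11 ± 0.14 for C8a, -0.10 ± 0.18 for C9, -0.13 ± 0.16 for C6 and -0.066 ± 0.15 for C8b. Those of C9, C6 and C8b were 0.024, 0.0010 and 0.016 without HFD control replicate 1, the other sign. Canagliflozin against caloric restriction gave 0.20 ± 0.17 for C9 and 0.16 ± 0.13 for C8a.

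C8b and C9 moved together across the 14 arrays (r = 0.91, permutation p = 2e-05, adjusted p = 0.000108, rho = 0.88, permutation p = 7e-05, adjusted p = 0.00063). So did C6 and C8b (r = 0.89, permutation p = 2e-05, adjusted p = 0.000108, rho = 0.86, permutation p = 0.00022, adjusted p = 0.00099) and C6 and C9 (r = 0.76, permutation p = 0.00181, adjusted p = 0.00465, rho = 0.70, permutation p = 0.00664, adjusted p = 0.023). Without the 2 arrays farthest from the median of the first gene, r was 0.88, 0.91 and 0.79. After subtracting group means r was 0.92, 0.89 and 0.73. These 3 pairs were chosen after the values were seen. Of all 595 pairs of members, with group means subtracted, C8b and C9 ranked 2 from the highest r, and C6 and C8b ranked 3. The adjustment over 18 relations does not cover that choice. Other pairs were also close, with r = 0.86 for F10 and Plg, and 0.82 for F13b and Plg and for Cfi and F9. C8g and Plg had r = -0.80, and the median of the 595 pairs was 0.14.

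Macrophage markers moved with these genes as well, though less closely than with Cfp. F13b (r = 0.68) and Mbl2 (r = 0.63) followed the mean of the 10 markers more closely than these genes did, and were not tested. Over all measured members r ran from -0.34 for C8g to 0.88 for Cfp. Against the mean of the 10 markers C9 had r = 0.57 (permutation p = 0.0327, adjusted p = 0.0468) and rho = 0.42 (permutation p = 0.136, adjusted p = 0.175), and r = 0.14 without restriction replicate 5 and HFD control replicate 1. C8b had r = 0.57 (permutation p = 0.0323, adjusted p = 0.0468) and rho = 0.53 (permutation p = 0.054, adjusted p = 0.0972), and C8a had r = 0.56 (permutation p = 0.0338, adjusted p = 0.0468) and rho = 0.38 (permutation p = 0.176, adjusted p = 0.211). Without restriction replicates 1 and 5, r was 0.33 for both, so the relations of C8a, C8b and C9 rest on the arrays left out. C6 had r = 0.51 (permutation p = 0.0641, adjusted p = 0.0769) and rho = 0.59 (permutation p = 0.0292, adjusted p = 0.0584), and r = 0.54 without restriction replicate 1 and HFD control replicate 1. Restriction replicate 5 had the lowest macrophage mean of the 14 arrays (6.27) and the lowest mean of 19 secretory pathway genes (8.31), while replicate 1 had 6.83 and 8.56. These relations were chosen after the values were seen, and the part of either in the terminal complement values was not tested.

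C8a and C8b are neighbouring genes whose chains share a protein, and they had r = 0.72 (permutation p = 0.00417, adjusted p = 0.00938) and rho = 0.62 (permutation p = 0.0214, adjusted p = 0.0482). Without restriction replicates 1 and 5, r was 0.39, so that relation rests on those arrays. C8g, which encodes the third chain of C8 and lies on another chromosome, went the other way. With C8a it had r = -0.61 (permutation p = 0.0194, adjusted p = 0.0389) and rho = -0.50 (permutation p = 0.0711, adjusted p = 0.116), and r = -0.51 without the same arrays. With C8b it had r = -0.40 (permutation p = 0.154, adjusted p = 0.173) and rho = -0.44 (permutation p = 0.115, adjusted p = 0.159), and r = -0.21 without them. After subtracting group means r was 0.73 for C8a and C8b, -0.77 for C8a and C8g and -0.47 for C8b and C8g. C8g was highest in restriction replicate 1 at 11.23, where C8a was lowest at 10.46. It differed from controls by -0.16 ± 0.11 under canagliflozin and -0.018 ± 0.11 under restriction.

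**Figure D3:**
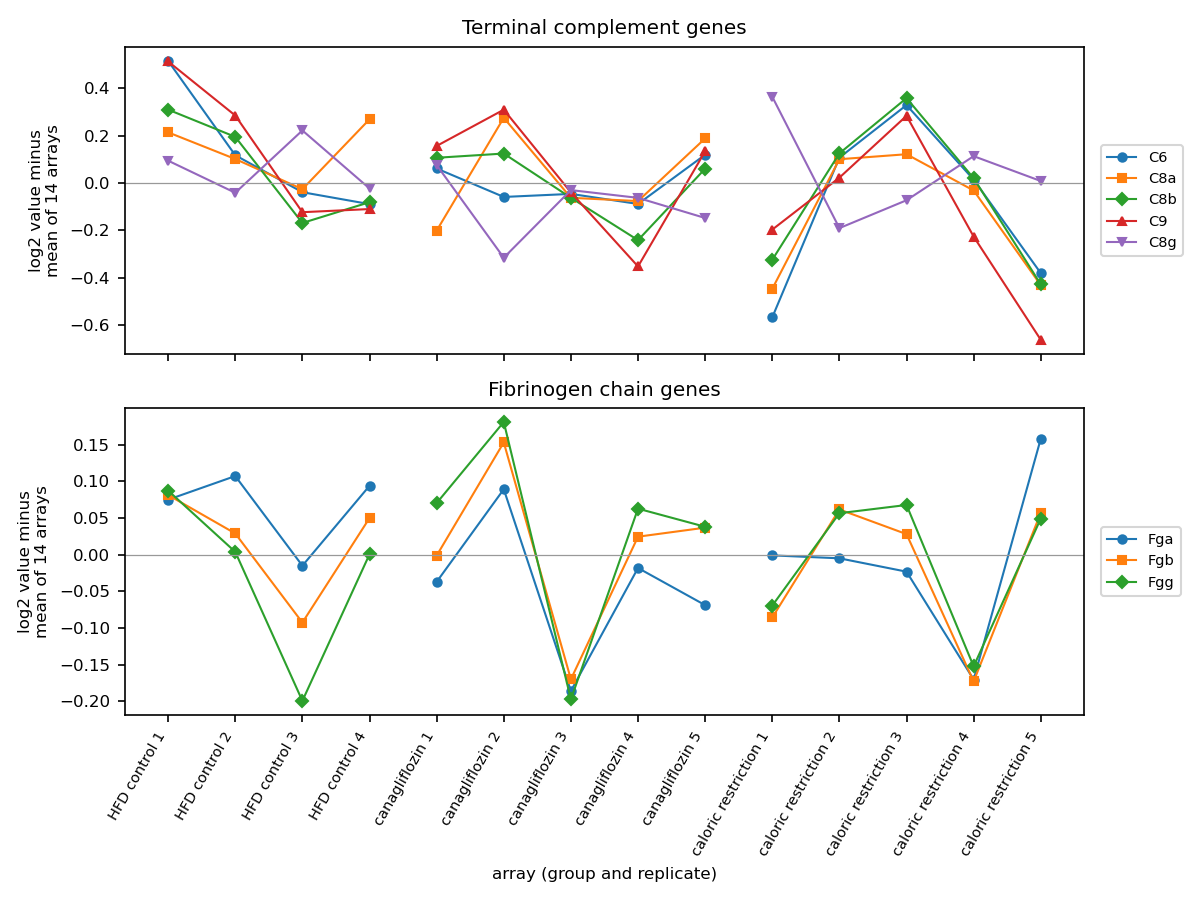
Log2 values minus the mean of 14 arrays (y axis) for terminal complement genes (top) and fibrinogen genes (bottom) in each array (x axis, by group and replicate). C6, C8a, C8b and C9 all lie below their means in caloric restriction replicates 1 and 5, while Fga, Fgb and Fgg are low together in canagliflozin replicate 3 and caloric restriction replicate 4.

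Complement inhibitors were represented by C4bp, Cfi, Serping1 and Vtn. C4bp, which binds C4b and lets factor I cut it, measured 10.84, 11.09, 11.05 and 11.01 in HFD controls, 10.69, 10.94, 11.02, 10.71 and 10.82 under canagliflozin, and 10.83, 11.02, 10.84, 10.90 and 10.81 under caloric restriction. Canagliflozin replicates 1 and 4 were the lowest arrays, and replicates 2 and 3 lay among the controls. The difference was -0.16 ± 0.094 (SE) under canagliflozin (interval -0.36 to 0.037, limma unadjusted p = 0.105, adjusted p = 0.815) and -0.12 ± 0.094 under restriction. Cfi, which encodes factor I, differed by -0.13 ± 0.095 and -0.042 ± 0.095. Serping1, the C1 inhibitor that also blocks kallikrein and factor XII, differed by 0.014 ± 0.089 and -0.019 ± 0.089. Vtn, which encodes vitronectin, a plasma protein that keeps the terminal complex from membranes, differed by -0.011 ± 0.087 and 0.017 ± 0.087.

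The fibrinogen genes, whose promoters are printed above, differed by at most 0.11 between group means. Fga, the alpha chain, measured 11.62, 11.65, 11.53 and 11.64 in HFD controls, 11.51, 11.63, 11.36, 11.53 and 11.48 under canagliflozin, and 11.54, 11.54, 11.52, 11.37 and 11.70 under caloric restriction. Fgb, the beta chain, measured 13.08, 13.03, 12.91 and 13.05 in HFD controls, 12.998, 13.15, 12.83, 13.02 and 13.04 under canagliflozin, and 12.91, 13.06, 13.03, 12.83 and 13.06 under caloric restriction. Fgg, the gamma chain, measured 12.52, 12.43, 12.23 and 12.43 in HFD controls, 12.50, 12.61, 12.23, 12.49 and 12.47 under canagliflozin, and 12.36, 12.49, 12.50, 12.28 and 12.48 under caloric restriction. For each chain the groups overlapped, and canagliflozin replicate 3 and restriction replicate 4 were low for all 3. HFD control replicate 3 was also low for Fgb and Fgg.

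Under canagliflozin the differences from controls were -0.11 ± 0.088 for Fga, -0.0083 ± 0.089 for Fgb and 0.058 ± 0.096 for Fgg (SE), and under restriction they were -0.073 ± 0.088, -0.039 ± 0.089 and 0.017 ± 0.096. The 95% intervals under the drug were -0.29 to 0.075 for Fga, -0.20 to 0.18 for Fgb and -0.14 to 0.26 for Fgg. These 3 genes are neighbours on chromosome 3 and varied jointly. Fgb and Fgg had r = 0.93 over 14 arrays (permutation p = 3e-05, adjusted p = 0.000108), rho = 0.69 (permutation p = 0.00766, adjusted p = 0.023), r = 0.88 without restriction replicate 4 and canagliflozin replicate 3, and r = 0.96 after subtracting group means. Fga and Fgb had r = 0.77 (permutation p = 0.00135, adjusted p = 0.00405), rho = 0.66 (permutation p = 0.0124, adjusted p = 0.032) and r = 0.71 without canagliflozin replicate 3 and restriction replicate 5. Fga and Fgg had r = 0.60 (permutation p = 0.0233, adjusted p = 0.0419), but rho = 0.24 (permutation p = 0.417, adjusted p = 0.442). Without those arrays r was 0.47, so the relation of Fga and Fgg rests partly on them. After subtracting group means r was 0.85 for Fga and Fgb and 0.80 for Fga and Fgg.

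The vitamin K dependent proteases were measured for F2, F7, F9 and F10. F2, the gene of prothrombin, was the steadiest member and measured 12.02, 12.01, 11.93 and 12.05 in HFD controls, 12.02, 11.97, 11.91, 11.92 and 11.91 under canagliflozin, and 11.95, 11.83, 11.96, 11.93 and 11.94 under caloric restriction. Its standard deviation within groups, pooled over the 3 arms, was 0.050, where the median of the 35 members was 0.13 and that of all 22180 genes was 0.18. F2 differed by -0.054 ± 0.076 (SE) under canagliflozin and -0.081 ± 0.076 under restriction. The groups overlapped despite the small spread.

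F7, which with tissue factor starts clotting, measured 9.73, 9.45, 9.73 and 10.09 in HFD controls, 9.65, 10.27, 9.79, 9.84 and 9.65 under canagliflozin, and 9.74, 9.91, 10.05, 9.86 and 9.91 under caloric restriction. Canagliflozin replicate 2 was its highest array and HFD control replicate 2 its lowest. F9, the gene of the factor lacking in haemophilia B, measured 10.18, 10.29, 10.33 and 10.53 in HFD controls, 9.78, 10.47, 10.34, 10.43 and 10.51 under canagliflozin, and 10.29, 10.44, 10.01, 10.28 and 10.34 under caloric restriction. Canagliflozin replicate 1 lay apart from the rest of its group for F9. F7 differed by 0.090 ± 0.14 and 0.15 ± 0.14, F9 by -0.032 ± 0.14 and -0.066 ± 0.14, and F10, which makes thrombin from prothrombin, by 0.027 ± 0.094 and -0.039 ± 0.094, each pair under canagliflozin and then restriction against controls. F7 and F10 are neighbours on chromosome 8 and had r = 0.56 (permutation p = 0.0447, adjusted p = 0.0575) and rho = 0.34 (permutation p = 0.239, adjusted p = 0.269). Without canagliflozin replicate 2 and HFD control replicate 2, r was 0.37.

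Among the other clotting genes, F5 (the cofactor of factor X), F12 (which starts contact activation) and F13b (the carrier subunit of the fibrin-stabilising factor) differed from controls by -0.0017 ± 0.097, -0.045 ± 0.085 and 0.083 ± 0.098 under canagliflozin, and by -0.016 ± 0.097, -0.038 ± 0.085 and -0.0061 ± 0.098 under restriction. F11, a protease that amplifies thrombin formation, measured 9.34, 9.46, 9.49 and 9.41 in HFD controls, 9.24, 9.76, 9.29, 8.91 and 9.17 under canagliflozin, and 8.97, 9.61, 9.64, 9.45 and 8.97 under caloric restriction. The 4 controls lay within 9.34 to 9.49, whereas both treated arms spread below and above them, from 8.91 to 9.76 under canagliflozin and from 8.97 to 9.64 under restriction. F11 differed by -0.15 ± 0.16 and -0.096 ± 0.16 (SE). Kng1, which encodes kininogen, the source of bradykinin, measured 9.70, 9.83, 9.54 and 9.73 in HFD controls, 9.42, 9.64, 9.61, 9.61 and 9.52 under canagliflozin, and 9.69, 9.75, 9.57, 9.54 and 9.72 under caloric restriction. Its groups overlapped and it differed by -0.14 ± 0.089 under canagliflozin (limma unadjusted p = 0.136) and -0.046 ± 0.089 under restriction.

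Anticoagulant genes held the largest difference. Pros1 encodes protein S, the cofactor with which activated protein C destroys factors V and VIII, and it also binds C4b-binding protein. Pros1 measured 7.95, 7.96, 7.67 and 7.80 in HFD controls, 8.06, 8.68, 7.99, 8.49 and 8.13 under canagliflozin, and 7.89, 7.91, 7.74, 8.15 and 7.96 under caloric restriction. All 5 canagliflozin arrays lay above all 4 controls, with replicates 2 and 4 highest, while restriction and control arrays overlapped. The drug group averaged 8.27 ± 0.30 (SD, n = 5) against 7.84 ± 0.14 (n = 4) in controls and 7.93 ± 0.15 (n = 5) under restriction.

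Pros1 was 1.35-fold higher under canagliflozin than in HFD controls, a log2 difference of 0.43 ± 0.13 (SE, 95% interval 0.15 to 0.71), with a limma unadjusted p of 0.00517 and an adjusted p of 0.596. It was 1.27-fold higher than under restriction (0.34 ± 0.13, unadjusted p = 0.0143, adjusted p = 0.768), with overlapping arrays. Restriction against controls gave 0.084 ± 0.13. The difference from controls was 0.33 without canagliflozin replicate 2 and 0.50 without replicate 3. Non-overlapping higher arrays were found for 1 of 35 members (2.86%, against 0.987% of all genes), and lower ones for 0 of 35 (against 0.965%). In the other comparisons 0 of 35 members separated in either direction, where 0.703% of all genes were higher and 0.694% lower under restriction than in controls, and 0.437% higher and 0.491% lower under the drug than under restriction. Endothelial cells and macrophages are also known to make protein S. The mean of 8 sinusoidal endothelial markers ranged from 7.05 to 7.46 under canagliflozin, 7.08 to 7.41 in controls and 7.005 to 7.49 under restriction, and that of the 10 macrophage markers from 6.70 to 7.20, 6.42 to 7.21 and 6.27 to 7.07. Their part in the Pros1 difference was not tested.

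Proc, the gene of protein C, and Proz, the gene of protein Z, which helps to inhibit factor X, ran the other way between the treated arms. Proc measured 10.90, 10.86, 11.01 and 11.04 in HFD controls, 10.75, 10.99, 10.98, 10.88 and 10.86 under canagliflozin, and 10.98, 11.08, 11.09, 11.09 and 11.05 under caloric restriction. Proz measured 10.71, 10.63, 10.92 and 10.93 in HFD controls, 10.34, 10.76, 10.79, 10.75 and 10.73 under canagliflozin, and 10.71, 10.87, 10.86, 11.01 and 10.86 under caloric restriction. Canagliflozin replicate 1 was the lowest array for both, and the groups overlapped.

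Proc differed by -0.17 ± 0.078 (SE) under canagliflozin against restriction (limma unadjusted p = 0.0443, adjusted p = 0.817), which was -0.13 without canagliflozin replicate 1 (unadjusted p = 0.117). The unadjusted p of Proc was no longer under 0.05 in 10 of 19 alternatives, among them leaving out any of 7 single arrays. Proz differed by -0.19 ± 0.10 (unadjusted p = 0.0798), which was -0.11 without the same array (unadjusted p = 0.268). Against HFD controls Proc differed by -0.064 ± 0.083 under the drug and 0.11 ± 0.083 under restriction, and Proz by -0.12 ± 0.11 and 0.065 ± 0.11. Across arrays the pair had r = 0.88 (permutation p = 1e-05, the smallest that 100000 resamples can give, adjusted p = 0.000108), rho = 0.85 (permutation p = 0.00019, adjusted p = 0.00099) and r = 0.83 without canagliflozin replicates 1 and 5. Proz lies beside F10, with which it had r = -0.14 (permutation p = 0.575, adjusted p = 0.575) and rho = -0.20 (permutation p = 0.5, adjusted p = 0.5), and r = -0.16 without canagliflozin replicate 2 and restriction replicate 5. Both pairs were chosen after the values were seen. Proc and Proz ranked 4 from the highest r of all 595 pairs of members, with group means subtracted. The adjustment over 18 relations does not cover that choice.

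Serpinc1 encodes antithrombin, the main inhibitor of thrombin, and measured 12.09, 12.14, 12.15 and 12.31 in HFD controls, 11.997, 12.18, 12.06, 12.05 and 11.99 under canagliflozin, and 12.19, 12.19, 12.10, 12.15 and 12.18 under caloric restriction. Canagliflozin replicates 1, 3, 4 and 5 lay below all controls, and replicate 2 did not. Serpind1, heparin cofactor II, measured 11.54, 11.55, 11.51 and 11.42 in HFD controls, 11.34, 11.37, 11.48, 11.31 and 11.37 under canagliflozin, and 11.57, 11.50, 11.45, 11.46 and 11.26 under caloric restriction. Serpinc1 differed by -0.12 ± 0.081 (SE) under canagliflozin (limma unadjusted p = 0.166) and -0.0088 ± 0.081 under restriction, with -0.11 ± 0.076 between the treated arms (unadjusted p = 0.174), and Serpind1 by -0.13 ± 0.085 (unadjusted p = 0.144) and -0.055 ± 0.085. For Serpind1 the highest drug array lay within the range of controls.

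**Figure D4:**
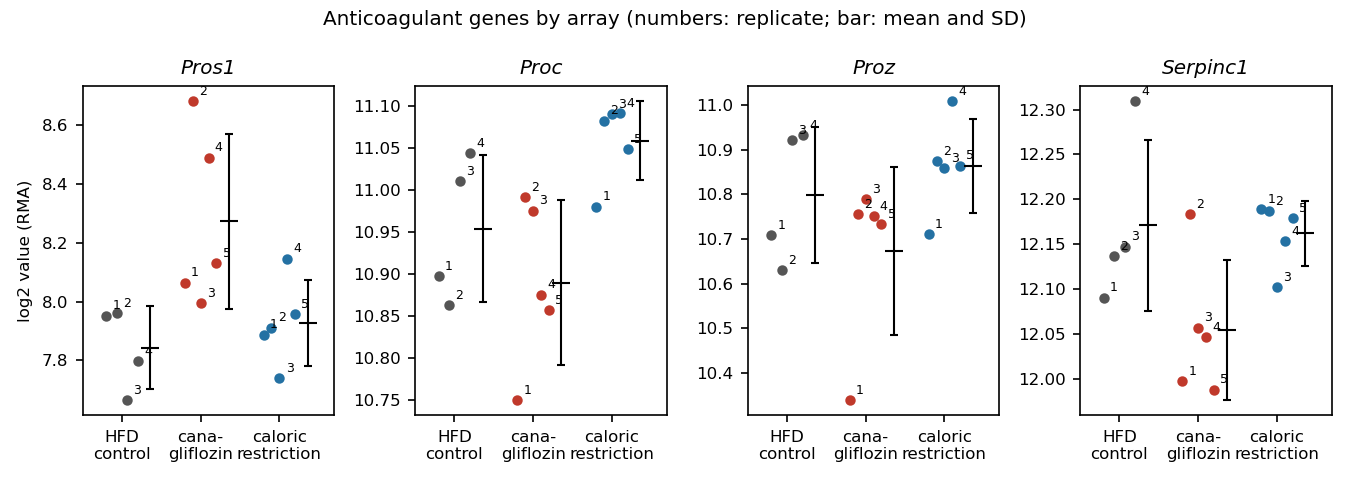
Log2 values (y axis) of Pros1, Proc, Proz and Serpinc1 in each array by group (x axis), numbered by replicate, with the group mean and SD as a bar beside the points. Each panel has its own scale. The 5 canagliflozin arrays lie above all 4 HFD controls for Pros1, while the groups overlap for the other genes.

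Fibrinolysis was represented by Plg, which encodes plasminogen, and Serpinf2, which encodes its inhibitor antiplasmin. Plg measured 12.27, 12.35, 12.14 and 12.34 in HFD controls, 12.28, 12.49, 12.25, 12.26 and 12.25 under canagliflozin, and 12.21, 12.41, 12.32, 12.25 and 12.23 under caloric restriction. Canagliflozin replicate 2 was the highest array, and the groups overlapped. Plg differed by 0.029 ± 0.087 and 0.0065 ± 0.087 (SE) under canagliflozin and restriction, and Serpinf2 by 0.017 ± 0.097 and 0.054 ± 0.097. The 95% intervals for Plg were -0.15 to 0.21 and -0.18 to 0.19.

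Spread within groups differed widely between members. The pooled standard deviation ran from 0.050 for F2 and 0.072 for Serpinc1 to 0.31 for C9 and 0.30 for C1s1. Of the 5 terminal components, C6, C8b and C9 were among the 6 most variable members together with F11, Cfp and C1s1. The 962 genes on the array whose mean reached 9 had a median of 0.16. Canagliflozin replicate 2 was the highest of the 14 arrays for 11 of the 35 members, and canagliflozin replicate 1 the lowest for 8. HFD control replicate 3 was lowest for 6 and caloric restriction replicate 5 for 5.

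Other genes of the pathways were examined as lists. Of 29 measured complement genes outside the members, 0 passed in any comparison. At an unadjusted p under 0.05 in limma, 1 was higher and 2 lower under canagliflozin, against 3.21% and 3.3% of all genes. Under restriction 0 were higher and 1 lower (against 2.06% and 1.87%). Between the treated arms 1 was higher and 0 lower under the drug (against 3.07% and 2.98%). Under canagliflozin against controls Colec11, a lectin that starts the same pathway as the mannose-binding lectins, differed by 0.34 ± 0.15 (SE). In that comparison C5ar2, a receptor of C5a with a low mean log2 value of 5.35, differed by -0.39 ± 0.13. C4a differed by -1.03 ± 0.35 under the drug and -0.79 ± 0.35 under restriction, but its sequence is close to that of C4b (-0.098 ± 0.11 and -0.12 ± 0.11), so the value is uncertain. Cd46, a membrane regulator of complement, differed by 0.31 ± 0.12 between the treated arms. It was dim, with a mean log2 value of 4.21, near the array medians, so that value is uncertain. The medians of the list were 0.023, -0.0099 and 0.018 for canagliflozin and restriction against controls and for the drug against restriction.

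Of 28 other coagulation and fibrinolysis genes 0 passed in limma. Under canagliflozin 0 were higher and 1 lower at an unadjusted p under 0.05, against 3.21% and 3.3% of all genes. Under restriction it was 0 in either direction (against 2.06% and 1.87%). Between the treated arms 1 was higher and 2 lower (against 3.07% and 2.98%). Hgfac, a serine protease that activates hepatocyte growth factor, differed by -0.29 ± 0.12 (SE) from controls and -0.29 ± 0.11 from restriction under the drug. Fgl1, a secreted protein with a fibrinogen-like domain, differed by 0.83 ± 0.31 from restriction, and Plat, the tissue plasminogen activator, by -0.26 ± 0.12. Ggcx and Vkorc1, which carry out and sustain vitamin K dependent carboxylation, differed by -0.13 ± 0.11 and -0.24 ± 0.14 under canagliflozin. The medians were -0.042, 0.0025 and -0.050.

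Acute phase genes, which share inducers with fibrinogen, also gave 0 passes among 23 measured (limma). Their medians were 0.082, -0.0036 and 0.085. At an unadjusted p under 0.05, 1 was higher and 1 lower under canagliflozin, against 3.21% and 3.3% of all genes. Under restriction it was 0 in either direction (against 2.06% and 1.87%). Between the treated arms 1 was higher and 2 lower (against 3.07% and 2.98%). Of 21 liver transcription factor genes 0 passed, with medians of -0.070, 0.0033 and -0.067. At that level 2 were higher and 5 lower under canagliflozin, against 3.21% and 3.3% of all genes. Under restriction it was 0 in either direction, against 2.06% and 1.87%. The forkhead factor gene Foxa1 differed by -0.38 ± 0.12 under the drug and 0.0033 ± 0.12 under restriction, and Foxa2 by -0.34 ± 0.13 and -0.00036 ± 0.13. In the C/EBP family Cebpa differed by -0.38 ± 0.14 and -0.19 ± 0.14, whereas Cebpb (0.29 ± 0.13 and 0.11 ± 0.13) and Cebpd (0.43 ± 0.18 and 0.19 ± 0.18) had higher means under both treatments, and these were the 2 higher factors at that level under the drug. Cebpd was dim, with a mean log2 value of 4.64. The other lower factors were Foxa3 (-0.31 ± 0.14) and Dbp (-0.41 ± 0.19). Hnf4a differed by 0.047 ± 0.11 and 0.10 ± 0.11. Between the treated arms 0 factors were higher and 3 lower under the drug at that level, against 3.07% and 2.98% of all genes. The lower ones were Foxa1 (-0.38 ± 0.12), Foxa2 (-0.34 ± 0.13) and Nr0b2 (-0.54 ± 0.25). The factors named here were chosen after their values were seen. Of 19 genes of the secretory pathway through which these proteins leave the cell, 18 had lower means in each treated arm than in the shared controls, where 50.3% and 49.5% of all genes did, with medians of -0.17 and -0.15. Of these genes 0 passed in limma, and 6 under canagliflozin and 2 under restriction were lower at an unadjusted p under 0.05, where 3.3% and 1.87% of all genes were. Their array means overlapped, from 8.70 to 8.95 in controls, 8.33 to 8.77 under canagliflozin and 8.31 to 8.95 under restriction. Canagliflozin replicate 4 and restriction replicate 5 were the lowest arrays. Between the treated arms 13 of 19 had lower means under the drug, against 51% of all genes, and 1 was lower at that level, against 2.98%.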

How the data were processed

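Liver total RNA (250 ng) was labelled by the Affymetrix WT Plus protocol, per the labels' protocols. What the authors deposited is 1 log2 value for each probe set and array; the submitters' processing notes name Affymetrix Expression Console and RMA. RMA equalises array distributions, so a global change in RNA would not be seen. No source used here gives a genome build. Of 41345 probe sets, 23521 had 1 symbol, 1814 several and 16010 none. Precision is limited by the number of arrays.

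A limma model (version 3.58.1, R 4.3.3) with 1 mean per group covered all 14 arrays, with Benjamini-Hochberg adjustment and a threshold of 0.05. Values per array follow replicates in order. Relations across arrays used 2-sided permutation tests with 100000 resamples, adjusted over 18. Array values are given for the 4 members with the smallest p per comparison and for a fixed list (its member C3 was not measured); C8b was added after its values were seen. The members and lists were chosen with earlier results of these data known. The fit was tested on simulated data. Alternatives were a fit of the 2 groups alone, a filter at a mean log2 of 5, median centring, cyclic loess, a trended robust variance, array weights, the replicate block, the mean of probe sets, an adjusted p of 0.1, leaving out each array and, chosen after seeing the data, deposited order as a covariate.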

Additional observations from a re-analysis of the deposited data

Results flagged for a closer look

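In 8 of the 105 combinations of a gene and a group that were examined, the highest or lowest array stood apart from the rest by Dixon's criterion at the 95% level, which by chance marks about 1 group in 20. Canagliflozin replicate 2 was the highest of its group for F10 (10.25, next 9.93), F13b (9.90, next 9.73) and Plg (12.49, next 12.28). Canagliflozin replicate 1 was the lowest of its group for F9 (9.78, next 10.34) and Proz (10.34, next 10.73). HFD control replicate 4 was the highest control for Serping1 (12.16, next 11.97) and HFD control replicate 3 the lowest for F10 (9.83, next 9.96). Caloric restriction replicate 2 was the lowest of its group for F2 (11.83, next 11.93).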

How the results depend on the processing

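No member passed the threshold under any alternative that was run, and the median difference of the members moved by less than the pooled spread between arrays in each, a spread larger than the medians themselves. That median ranged from -0.069 to -0.0087 for canagliflozin and from -0.060 to -0.013 for restriction against HFD control (-0.019 with the replicate block). The count over all genes was less stable. For canagliflozin against HFD control it was 0, and 1 when genes whose mean log2 was under 5 were left out, 1 with deposited order as a covariate, and 0 to 12 when 1 array was left out (12 without canagliflozin replicate 3). For caloric restriction against HFD control it was 0, and 1 with deposited order as a covariate. For canagliflozin against caloric restriction it was 1, the gene Rtkn, and 0 with the 2 groups alone, and 0 to 16 when 1 array was left out (16 without canagliflozin replicate 3). With the replicate number as a block that count was 2, and it was 0 for members in every comparison. Between the treated arms Proc no longer had an unadjusted p under 0.05 in 10 of 19 alternatives, the block and the fit of the 2 groups alone among them. For restriction against HFD control C8a gained one in 5 of 18 alternatives, array weights and the trended robust variance among them. Deviations of same-numbered arrays correlated from -0.089 to 0.20 over 13 pairs (median 0.050), above 0.1 in 3. Those of the 52 other pairs between groups ran from -0.21 to 0.18 (median -0.019), above 0.1 in 8. The ranges overlap, and the numbers were not taken as pairing. Pros1 kept a higher value in all 18 alternatives against HFD control (0.33 to 0.50, limma unadjusted p from 0.00188 to 0.0219) and in all 19 against restriction (0.24 to 0.41, unadjusted p up to 0.0515 without canagliflozin replicate 2). The number of arrays sets the precision: the median 95% interval of a member reached 0.21 to either side against controls and 0.19 between treated groups.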
